A study of Mus musculus with 4 samples.

Results

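The polo-like kinases are a family of 5 serine/threonine kinase genes in the mouse, Plk1 to Plk5, and all 5 were measured among 22180 genes on arrays of BR5FVB1-Akt cells, a cultured line of mouse ovarian cancer. A gene was represented by the array row that carried its symbol alone, and each of the 5 had 1 such row. The family was chosen by the array values of Plk2, which was among the genes with the largest rise in this same comparison, so the members' values are given as a description with no p. The 2 groups were 2 samples titled control, read here as without the drug, and 2 titled decitabine treatment, read as given 10 uM decitabine for 72 h. There was 1 array per sample, and all of the samples were BR5FVB1-Akt cells. Decitabine is a cytidine analogue that is built into replicating DNA and captures DNA methyltransferases there. The labels do not state what the control cells received, which alleles or transgenes the line carries, or whether samples called biological replicates were grown apart, so the p-values measure the spread between these 4 arrays. They describe 1 cell line.

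Polo-like kinases carry a kinase domain at one end and, at the other, polo boxes that dock the enzyme onto partner proteins. Plk1 drives entry into mitosis, spindle assembly and cytokinesis. Plk4 starts the duplication of centrioles. Plk2, first described as a serum-inducible kinase, and Plk3 are early-response and stress-response genes in many cell types, and Plk2 is a known target of p53. Plk5 is the least studied member and is known mainly from neural tissue.

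The region before each gene's start was examined because decitabine acts on CpG methylation and because Plk2 alone of the family had a large difference. RefSeq windows of assembly GRCm38.p6, with 250 bases before and 50 after the start, were found for all 5 members. The windows of Plk2, Plk3 and Plk4, the members that hold the short motif TGACG, are printed for the 250 bases before the start, 5′ to 3′ on the gene's strand. Capitals mark TGACG on either strand, which is one side of the cAMP response element.
Plk2, chr13:110394794-110395043, plus strand: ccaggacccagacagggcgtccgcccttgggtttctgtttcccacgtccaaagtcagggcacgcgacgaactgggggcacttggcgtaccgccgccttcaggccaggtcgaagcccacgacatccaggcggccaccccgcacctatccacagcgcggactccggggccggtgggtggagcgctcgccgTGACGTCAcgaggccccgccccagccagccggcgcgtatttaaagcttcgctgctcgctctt
Plk3, chr4:117133964-117134213, minus strand: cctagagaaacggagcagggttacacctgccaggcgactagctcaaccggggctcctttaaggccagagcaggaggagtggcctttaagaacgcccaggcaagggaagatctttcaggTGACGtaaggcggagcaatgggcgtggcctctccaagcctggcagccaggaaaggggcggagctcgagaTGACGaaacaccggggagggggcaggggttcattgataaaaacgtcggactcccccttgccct
Plk4, chr3:40799701-40799950, plus strand: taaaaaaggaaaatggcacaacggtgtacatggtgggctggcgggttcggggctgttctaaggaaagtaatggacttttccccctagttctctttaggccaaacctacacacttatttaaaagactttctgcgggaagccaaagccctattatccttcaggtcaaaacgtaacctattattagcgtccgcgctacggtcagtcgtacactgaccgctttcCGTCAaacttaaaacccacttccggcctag
In the Plk2 window a pair of overlapping matches, beginning 62 and 59 bases before the start, joined into the full element TGACGTCA, which was searched for after the windows were seen, and another TGACG match lay at base 22 after the start. The full element was in 1.79% of 32851 promoter windows of the same length and in no other Plk window, while TGACG was in 20.8% of them. Plk3 held TGACG 132 and 63 bases before its start and Plk4 held it on the opposite strand, 30 bases before.

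All 5 windows held more CpG sites than the median window. Plk2 had 31 CpG sites in 300 bases, as many as or more than 90.5% of all windows. Plk1 had 25, Plk3 22, Plk5 21 and Plk4 18, against a median of 7 over all windows. The motif GGGCGG, known as the GC box, was found in the windows of Plk1, Plk2, Plk3 and Plk5, and in 35.7% of all windows. Plk1 and Plk5 held CCAAT, found in 37.4% of windows, 14 and 5 bases before their starts. Plk1 alone held TTTGAA, a form of the cell cycle homology region of mitotic genes, at base 31 after its start, and 17.9% of windows hold it. The letters TTCGAA (in 1.56% of windows), TATAAA (13.6%) and TGANTCA (7.81%), the CArG box (1.63%) and the p53 binding decamer (8.36%) were in none of the 5 windows. Both strands were searched throughout. DNA methylation was not measured, and matches of letters are descriptions of these windows.

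Values below are the deposited array values, read as log2 expression because of their range, and a difference is the decitabine mean minus the control mean on that scale. Values of different genes come from different probes, so where rows are called bright or dim this describes array values and ranks no expression between genes. The median over all array rows was 4.60 on each control array, 4.60 on decitabine replicate 1 and 4.66 on decitabine replicate 2, and Pearson's r across genes, which are not independent replicates, was 0.995 between control arrays, 0.993 between decitabine arrays and 0.990 to 0.991 between groups. The ovarian label was set against marker genes. The epithelial keratin gene Krt18 was at 9.22 to 9.57, Wt1, a transcription factor gene of ovarian surface and serous tumour cells, at 10.53 to 10.86, and Upk3b, a mesothelial membrane protein gene and the brightest of its list, at 11.77 to 11.99. The epithelial adhesion genes Epcam, at 4.62 to 4.99, and Cdh1, at 5.34 to 5.83, and the Müllerian factor Pax8, at 3.46 to 3.62, were dim, and no background level could be set for these arrays. The mesenchymal proteoglycan gene Dcn, the brightest of its list, was at 11.74 to 11.82. Of these genes, only Upk3b and Dcn were named by rule, and the others were picked after their values were seen.

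Plk2 was the member with the large difference. Its values were 6.51 and 6.61 without the drug and 8.46 and 8.64 with it. The decitabine arrays lay above the control arrays with a gap of 1.85 between the nearest arrays of the groups, whereas arrays of the same group lay 0.11 and 0.18 apart. The mean went from 6.56 ± 0.07 (SD, n = 2) to 8.55 ± 0.13, a difference of 1.99 ± 0.11 (SE) with a 95% interval of 1.70 to 2.28, or 3.97-fold. It was the 9th largest rise of the 22180 genes. In the limma fit across all genes 1 of the 5 members, Plk2, passed the adjusted p threshold of 0.05, as did 0.144% of all genes in either direction, 0.131% upward and 0.0135% downward. Because Plk2 was the reason for choosing the family, that count supports nothing. Its call was lost in fits on any 3 of the 4 arrays, in which its difference was 1.90 to 2.08.

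**Figure D1:**
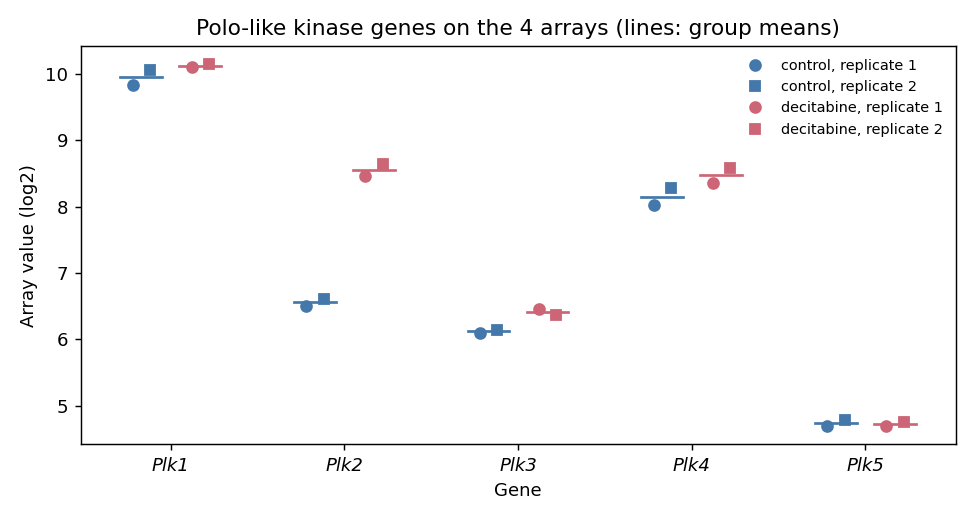
Array values (log2) of the 5 polo-like kinase genes on each array, with circles for replicate 1, squares for replicate 2 and lines for the group means (2 arrays each). The decitabine arrays of Plk2, at 8.46 and 8.64, stand clear of its control arrays at 6.51 and 6.61, while the groups of the other genes lie close together.

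Plk3, the other stress-response member, showed a much smaller difference. It was at 6.09 and 6.14 on the control arrays and at 6.46 and 6.36 on the decitabine arrays, so that the groups did not overlap. The gap between the nearest arrays was 0.22, against distances of 0.05 and 0.10 within the groups. The difference was 0.29 ± 0.10 (SE, 2 arrays per group), with a 95% interval of 0.03 to 0.55, or 1.22-fold. With each array centred on its median the interval was -0.03 to 0.56. Plk3 did not pass the threshold in the fit or in any alternative run, and neither did Plk1, Plk4 or Plk5.

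Plk4, the centriole kinase, stood at 8.02 and 8.28 on the control arrays and at 8.36 and 8.59 on the decitabine arrays. The groups did not overlap, but only 0.08 parted the nearest arrays, less than the 0.26 between the control arrays and the 0.23 between the decitabine arrays. The difference was 0.32 ± 0.14 (SE), with a 95% interval of -0.04 to 0.69, or 1.25-fold. With 1 array left out it was 0.19 (control replicate 1), 0.45 (control replicate 2), 0.44 (decitabine replicate 1) or 0.21 (decitabine replicate 2). The interval of Plk4 depended on the setting. It was 0.09 to 0.55 with an intensity trend in limma's variance model and 0.03 to 0.62 with the replicate number as a block. With quantile normalization it was -0.05 to 0.69 and with centred arrays -0.05 to 0.64.

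Plk1, the mitotic member, was at 9.84 and 10.06 on the control arrays and at 10.10 and 10.15 on the decitabine arrays. Control replicate 1 was the low array, and the other 3 lay within a narrow band. The difference was 0.18 ± 0.12 (SE), with a 95% interval of -0.13 to 0.48, or 1.13-fold. It was 0.07 without control replicate 1 and 0.29 without control replicate 2. With the intensity trend the interval was 0.02 to 0.34, and in every other alternative it included 0.

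Plk5 had 4.69 and 4.78 without the drug and 4.70 and 4.76 with it, and the groups overlapped. The difference was -0.01 ± 0.10 (SE), with a 95% interval of -0.26 to 0.25, and its sign changed with the array left out. No background level was set for these arrays, so neither presence nor absence of the transcript is shown.

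In 4 of the 5 members both decitabine arrays lay above both control arrays, against 23.4% of all genes. Nothing is read from that count, since it comes from the contrast that chose the family. For Plk1, Plk3, Plk4 and Plk5 the 95% intervals ended below a doubling, which is 1 on this scale. By the size of the difference Plk2 stood at the 99.96th percentile of all genes, Plk4 at the 84.9th, Plk3 at the 81.4th, Plk1 at the 61.7th and Plk5 at the 2.92nd.

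**Figure D2:**
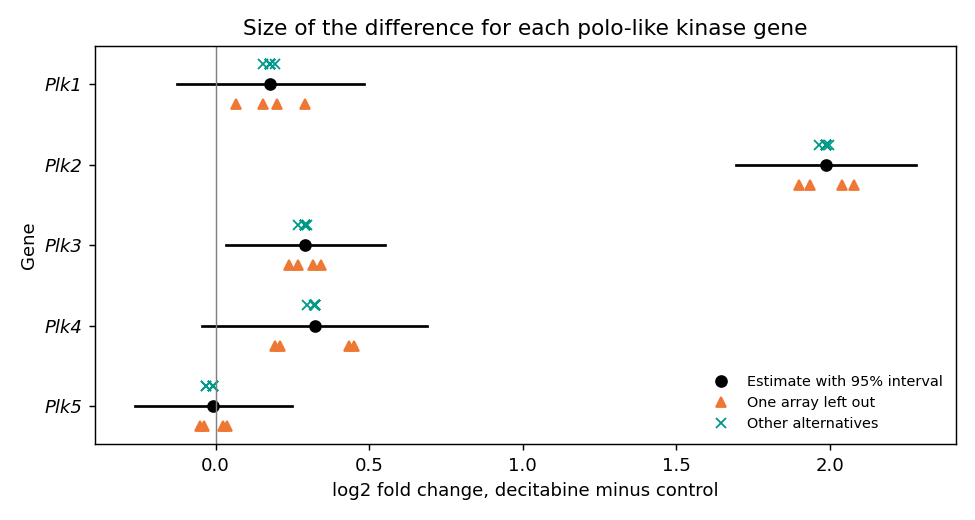
Differences (log2 fold change, decitabine minus control) of the 5 genes, with the estimate and its 95% interval as a black point and bar, values with 1 array left out as triangles and the other alternatives as crosses. Plk2 lies at 1.99 with left-out values of 1.90 to 2.08, and the other members lie between -0.01 and 0.32, with Plk1 and Plk4 moving most when a control array was left out.

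Genes that work with Plk1 in mitosis had small differences, mostly upward. Of 27 measured genes of mitotic entry, Plk1 activation and Plk1 partners none passed over all genes in limma. Before adjustment 7 had a p under 0.05 upward and 0 downward, where 7.34% of all genes did so upward and 6.97% downward, and the list's median was 0.12, against 0.004 over all genes tested. The smallest p-values belonged to Lin54, a DNA-binding subunit of the complex that controls mitotic genes, at 0.46 ± 0.10 (SE), to the mitotic kinase Mastl at 0.42 ± 0.10, and to the transcription factor Mybl2 at 0.38 ± 0.10. Aurka, the kinase that activates Plk1, and its cofactor Bora, both picked after their values were seen, were at 0.32 ± 0.12 and 0.11 ± 0.14. When limma's variance model was given an intensity trend, 5 of the 27 were called higher and 0 lower, among them Lin54, Mastl, Mybl2 and Aurka. That fit called 3.68% of all genes higher and 3.60% lower. The count with an unadjusted p under 0.05 upward fell from 7 to 3 with each array centred on its median. It was also 3 with the replicate number as a block. Over all genes 2920 and 2815 of 22180 had such a p in these fits, in either direction.

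The genes of the spindle checkpoint, anaphase and cytokinesis, many of whose products Plk1 phosphorylates, gave a similar picture. None of 31 passed in limma, and the median was 0.20. Unadjusted p-values under 0.05 were found for 6 upward and 0 downward, against 7.34% and 6.97% of all genes. Anln, a scaffold of the contractile ring, went from 9.38 and 9.61 to 9.99 and 10.06, a difference of 0.53 ± 0.12 (SE, 2 arrays per group). The kinesin gene Kif20b was at 0.34 ± 0.10 and the kinetochore gene Ndc80 at 0.33 ± 0.11. The intensity trend called 6 of the 31 higher and 0 lower, these 3 among them, against 3.68% and 3.60% of all genes. The count with an unadjusted p under 0.05 upward fell from 6 to 3 with centred arrays, and also to 3 with the replicate block.

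Control replicate 1 was the lowest array for these lists, as it was for Plk1 and Plk4. In Plk4 the decitabine arrays also lay 0.23 apart, near the 0.26 between its control arrays. The spindle checkpoint list averaged 8.38 on control replicate 1 and 8.56 on control replicate 2, against 8.65 on each decitabine array, and the mitotic entry list averaged 7.97, 8.11, 8.20 and 8.18 in the same order. Without control replicate 1 the medians of the spindle and mitotic entry lists were 0.10 and 0.06, without control replicate 2 they were 0.27 and 0.24, and without either decitabine array they were 0.18 to 0.20 and 0.15 to 0.16. What part control replicate 1 has in the differences of Plk1 and Plk4 was not tested. Since RNA came from whole cultures, more dividing cells and more RNA per dividing cell cannot be told apart.

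**Figure D3:**
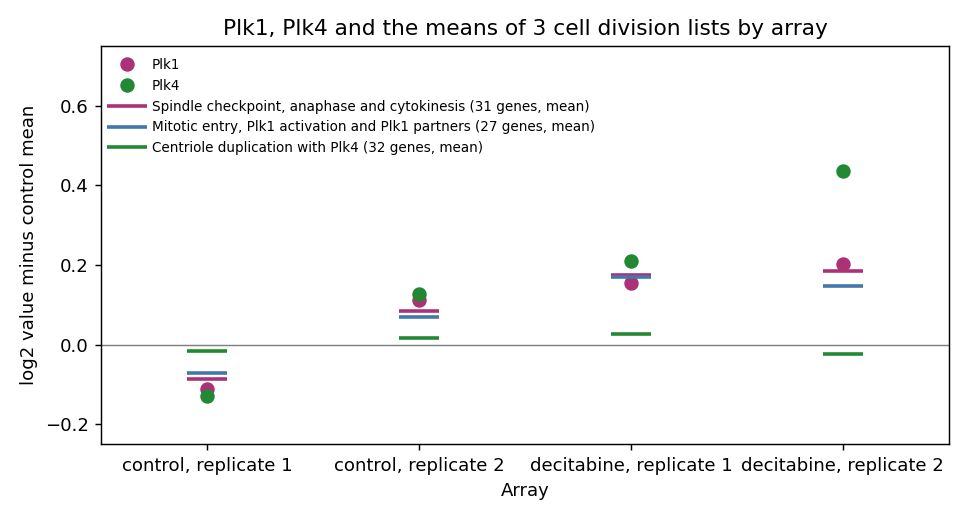
Values on each array (log2, minus the mean of the control arrays) of Plk1 and Plk4 as points and of 3 cell division lists as bars at the mean of their measured genes. Control replicate 1 is lowest for Plk1, Plk4, the spindle list (31 genes) and the mitotic entry list (27 genes), whereas the centriole list (32 genes) stays near 0 on all arrays.

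Centriole genes that act with Plk4 were split. Of 32 measured members none passed in limma, and the median was -0.02, with 15 above 0 and 17 below. Unadjusted p-values fell under 0.05 for 5 upward and 2 downward, against 7.34% and 6.97% of all genes. Those with the smallest p-values build the new centriole beside Plk4. Stil, which binds and activates Plk4, was at 7.63 and 7.82 without the drug and 8.16 and 8.11 with it, a difference of 0.41 ± 0.11 (SE). Cep152, which brings Plk4 to the centriole, was at 0.34 ± 0.11, and Cep135, of the centriole core, at 0.30 ± 0.10. Sass6, the cartwheel protein gene, picked after its value was seen, was at 0.40 ± 0.15. Downward, and also picked after their values were seen, Cep57l1, a relative of a centrosome protein gene, was at -0.34 ± 0.12 and the centriole protein gene Cntln at -0.33 ± 0.12. With the intensity trend 1 of the 32, Stil, was called, a share near the 3.68% of all genes called higher. With 1 array left out the list's median was -0.048 to -0.004.

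Other kinases of mitosis and its checkpoints, the nearest functional relatives of the family, also stayed below the threshold in limma. Of 26, none passed, and the median was 0.09. Before adjustment 2 upward and 0 downward had a p under 0.05, against 7.34% and 6.97% of all genes. The centrosome kinase Nek2 was at 0.43 ± 0.10 (SE), Nek5 at 0.29 ± 0.11 and Nek3 at -0.32 ± 0.13. With the intensity trend 1 of the 26, Nek2, was called, a share near the 3.68% of all genes called higher.

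The partners and substrates of Plk2 and Plk3 included no called gene. The median was 0.07. In limma 0 of 24 upward and 1 downward had an unadjusted p under 0.05, against 7.34% and 6.97% of all genes. The one downward was Sipa1l2, a relative of the synaptic Plk2 substrate gene Sipa1l1. Sipa1l2 was at 7.98 and 7.95 on the control arrays and at 7.51 and 7.15 on the decitabine arrays, a difference of -0.63 ± 0.15 (SE), and with the intensity trend it was the 1 of the 24 called, against 3.60% of all genes called lower. The oxidative stress factor Nfe2l2 was at 0.24 ± 0.11 and the kinase gene Vrk1 at 0.25 ± 0.11. Sipa1l1 itself and Cib1, whose product binds Plk2 and Plk3, both picked after their values were seen, were at 0.07 ± 0.10 and 0.07 ± 0.13.

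The list of the p53 family and its target genes, to which Plk2 also belongs by its known control, had values on both sides of 0. Of 32 measured members, Plk2 not counted, none passed in limma, and the median was 0.01. Before adjustment 6 upward and 6 downward had a p under 0.05, against 7.34% and 6.97% of all genes. The cell cycle inhibitor Cdkn1a was at 6.35 and 6.33 on the control arrays and at 7.78 and 7.52 on the decitabine arrays, a difference of 1.31 ± 0.12 (SE, adjusted p = 0.0579 in limma). Ddit4, an inhibitor of mTOR signalling, was at -1.11 ± 0.13 (adjusted p = 0.0762), and Trp53inp1, a p53-induced stress gene, at -0.68 ± 0.12. All 3 were called with the intensity trend, in which 1 gene of the list was higher and 4 were lower, against 3.68% and 3.60% of all genes. The p53 regulator Mdm2, picked after its value was seen, was at 0.23 ± 0.10. Of the list's 38 entries, Trp53 itself and the genes Gadd45a, Bax, Ddb2, Fdxr and Gdf15 had no usable row and were not analysed here. The counts and the median describe the 32 measured members only.

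Serum-induced immediate-early genes, the class in which Plk2 was first found, had 2 called members of 43, where 0.131% of all genes were called higher and 0.0135% lower. Both rose and none fell, and 22 upward and 2 downward had an unadjusted p under 0.05, against 7.34% and 6.97% of all genes. The list's median was 0.29, and 33 of the 43 were above 0. Ptgs2, the inducible prostaglandin synthase, was at 6.87 and 6.56 on the control arrays and at 8.72 and 8.63 on the decitabine arrays, and rose by 1.95 ± 0.14 (SE, adjusted p = 0.0417 in limma). Myc was at 6.58 and 6.81 and then at 8.18 and 8.17, and rose by 1.48 ± 0.12 (adjusted p = 0.0442). In both genes the decitabine arrays lay above the control arrays. The transcription factor Klf4 was at 1.06 ± 0.12 (adjusted p = 0.0762). The call of Myc was lost with robust eBayes, and the calls of both genes were lost in fits on any 3 of the arrays.

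Further down that list, and picked after their values were seen, the matricellular gene Ccn2 was at 1.41 ± 0.17, Klf6 at 0.98 ± 0.13 and the NF-kB inhibitor Tnfaip3 at 0.81 ± 0.10. Some classical factors, picked likewise, did not share that size, since Egr1 was at 0.16 ± 0.19, Jun at 0.20 ± 0.10, Fos at -0.47 ± 0.17 and Fosb at -0.48 ± 0.12. Atf3 and Nr4a2, of the same list and also picked likewise, were at 0.50 and 0.51. The intensity trend called 18 of the 43 higher and 1 lower, against 3.68% and 3.60% of all genes. Above the median level of all genes, where 39 of the 43 lay, 17 were called higher and 1 lower, against 635 and 616 of 11090 genes. The lists were written with earlier results of these arrays known, and Ptgs2 and Myc were among those results. Neither their calls nor the counts and median of this list therefore add independent support.

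**Figure D4:**
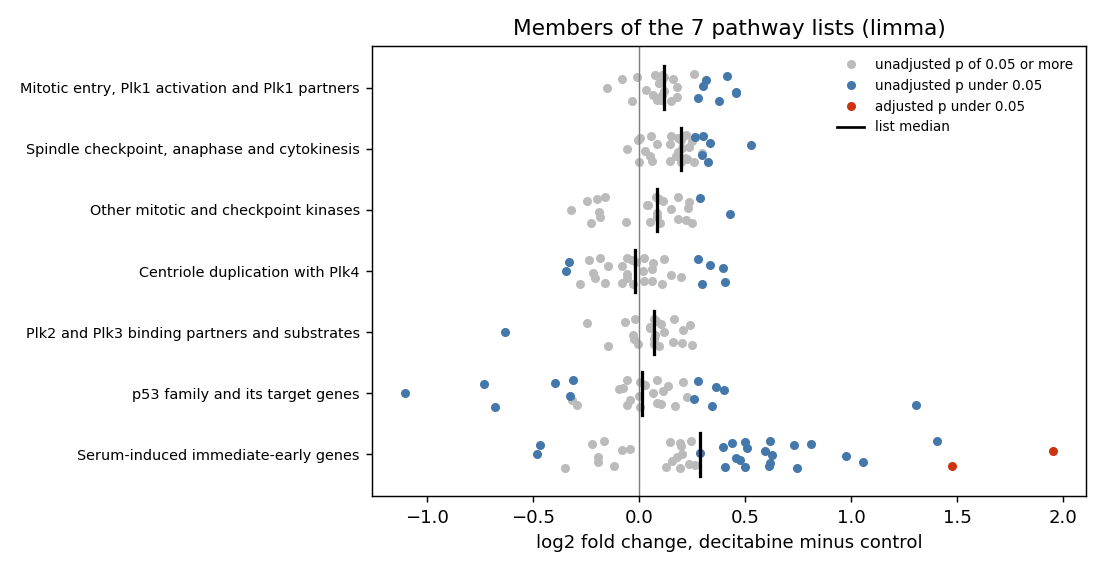
Difference of each measured member (log2 fold change, decitabine minus control) of the 7 pathway lists, coloured by its limma p-value, with a black bar at the list median. The serum-induced list has the median farthest from 0, at 0.29, and holds the 2 genes past the adjusted threshold, Ptgs2 and Myc, and the p53 list spreads to both sides, from -1.11 to 1.31.

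Likeness to Plk2 was measured over the 4 arrays as the root-mean-square difference between values centred on each gene's own mean, where 0 is an identical pattern. The nearest gene was the chemokine Ccl5, at 0.07, with 5.93 and 5.88 without the drug and 7.91 and 8.03 with it. Next came the apolipoprotein L gene Apol9b and the interferon-induced gene Ifit1, both at 0.09. The chemokine Cxcl3 was at 0.10 and the interferon-induced gene Oasl2 at 0.11. The measure joins genes of like size, so the 5 had differences of 1.95 to 2.07, near the 1.99 of Plk2. Apol9b has closely similar gene copies, so which copy its row measures is uncertain. Cxcl3 was dim on the control arrays, at 2.96 ± 0.05 (SD, n = 2).

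**Figure D5:**
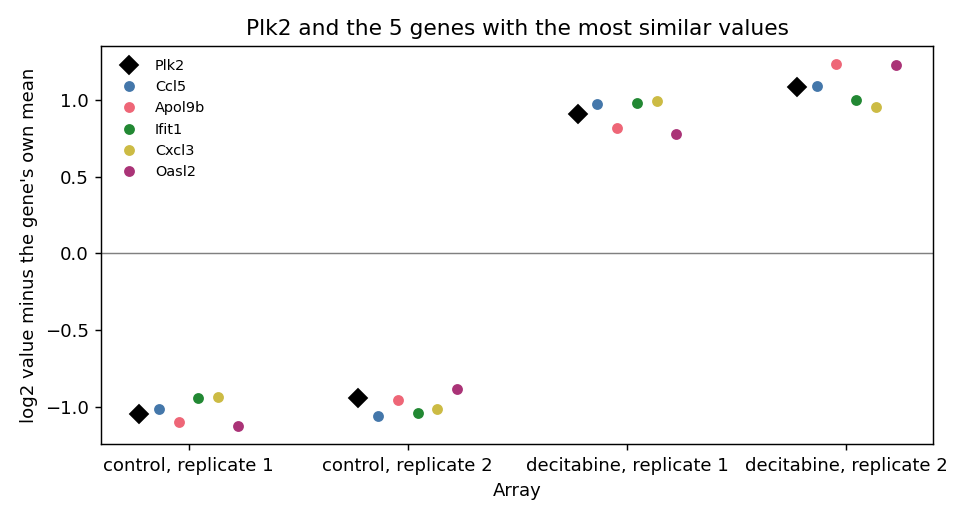
Values on each array (log2, minus the gene's own mean over the 4 arrays) of Plk2 and of the 5 genes nearest to it by root-mean-square difference. In each of the 6 genes both control arrays lie below and both decitabine arrays above the gene's mean, and Apol9b and Oasl2 differ more between the decitabine arrays than Plk2 does.

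The genes next to Plk2 on chromosome 13, picked after its values were seen, did not share its difference in size. Among measured protein-coding genes in RefSeq order, Gapt, an adaptor gene of blood cells, lies on one side at 0.20 ± 0.15 (SE) and Actbl2, an actin-like gene, on the other at 0.16 ± 0.20. Both were dim, at 3.62 to 4.36 over the 4 arrays, and neither passed in limma.

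Markers of other cell types were read on the same arrays, since a culture can hold cells of more than 1 type. Over all genes 7.34% had an unadjusted p under 0.05 upward in limma and 6.97% downward, the shares to set beside the counts below. Of 13 leukocyte markers none passed in limma, 2 upward and 0 downward had an unadjusted p under 0.05, and the intensity trend called 1 higher, against 3.68% of all genes. The list averaged 4.23 and 4.02 without the drug and 4.12 and 4.28 with it. Its brightest gene, the macrophage marker Cd68, was at 0.45 ± 0.10 (SE), and 8 of the 13 were above 0 and 5 below. Ptprc, which marks all leukocytes, was dim throughout, at 3.01 to 3.24, with a difference of 0.16 ± 0.10. Itgam, of the same list, was also dim, at 3.30 to 3.93, with a difference of 0.50 ± 0.11. Both Ptprc and Itgam were picked after their values were seen. Of 8 endothelial markers none passed, 2 upward and 0 downward had an unadjusted p under 0.05, and the averages were 4.27 and 4.20 against 4.38 and 4.43. The brightest of these was Pecam1, at 0.08 ± 0.12. Of 12 mesenchymal and fibroblast markers none passed, 3 upward and 1 downward had an unadjusted p under 0.05, and the group averages were 8.75 and 8.97. Its largest differences, picked after their values were seen, were in the surface glycoprotein gene Thy1, at 1.48 ± 0.17 (adjusted p = 0.0762 in limma), and the smooth muscle actin gene Acta2, at 0.72 ± 0.10 (adjusted p = 0.106). Of 15 ovarian epithelial markers none passed, with 4 upward and 2 downward before adjustment and averages of 6.92 and 7.03, and Msln, a mesothelial surface protein gene, was at 0.86 ± 0.10 and Lrrn4 at -0.64 ± 0.10, both picked likewise. The trend called 3 mesenchymal markers higher and 1 lower, and 4 epithelial markers higher and 3 lower, against 3.68% and 3.60% of all genes. Their part in the difference of Plk2 was not tested.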

How the data were processed

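Gene expression was measured in 2 control and 2 decitabine samples, 1 Affymetrix Mouse Gene ST array each, hybridised with biotin-labelled total RNA, per the labels' protocols. The table the authors deposited holds 1 value per row and array, from 0.55 to 13.3, and was read as log2 values from that range. The log base, summarisation, background correction and normalization are not given in the sources used here, and another base would change every fold. Groups and replicate numbers came from the sample titles, because the treatment text is the same for all samples. The table has 41345 rows. The platform annotation gives a single gene symbol for 23521, several for 1814 and none here for 16010, and only the first were used. The row with the highest mean was kept for the 1082 genes with several, which left 22180 genes, with no filter on dim rows.

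Genes were fitted with limma 3.58.1 in R 4.3.3 (lmFit, then eBayes without a trend, two-sided, with group as the model's single term). P-values were adjusted by Benjamini-Hochberg across the 22180 genes and called under 0.05. Intervals are limma's, at 95%. On simulated data for this comparison (22180 genes, 10 sets of 200 changed genes) the fit recovered 46.2% of 2-fold and 93.2% of 4-fold changes, with 5.04% false calls. Members and lists were chosen with earlier results of these data known. By rule the text names the 5 members, the 3 genes with the smallest p-value in each of 7 pathway lists, the 5 genes nearest to Plk2 (leaving out symbols of the form Gm plus digits or ending in Rik), and the brightest gene of each of 4 marker lists. Alternatives were quantile normalization, median centring, filters on dim genes, the replicate number as a block, robust eBayes, an intensity trend, averaging a gene's rows and leaving out each array. Promoter windows came from RefSeq, GRCm38.p6. Figures were drawn with matplotlib 3.10.9 in Python 3.11.15.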

Additional observations from a re-analysis of the deposited data

How the results depend on the processing

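The directions of Plk1, Plk2, Plk3 and Plk4 were the same under all alternatives run, and Plk5, which the filter at the median level left out, lay between -0.05 and 0.04. Leaving out 1 array gave 0.07 to 0.29 for Plk1, 1.90 to 2.08 for Plk2, 0.24 to 0.34 for Plk3 and 0.19 to 0.45 for Plk4. Counts of called genes depended on the variance model and on the filter on level. Of all genes, 29 were higher and 3 lower as reported, 151 and 64 with a filter at the 25th percentile of level, 635 and 616 above the median level, 817 and 798 with an intensity trend, and 15 higher with robust eBayes. There were 8 lower with centred arrays and 5 lower with the mean of a gene's rows. Of the 210 genes of the pathway lists, 2 were higher and 0 lower as reported, 9 and 1 above the 25th percentile, 26 and 6 above the median level, 32 and 6 with the trend, and 1 higher with robust eBayes. With the replicate block 0 genes were called, in the lists or in all (smallest adjusted p = 0.106 in limma, with 2815 genes at an unadjusted p under 0.05), and each fit with 1 array left out called 0 as well, with 1886 to 3275 genes at an unadjusted p under 0.05. Plk2 was called under every alternative but the block and the left-out arrays. Same-numbered arrays did not deviate together (r = -0.02 across genes), and the labels do not say that the numbers pair samples. The number of arrays limits the precision, and no background level was set for dim rows such as that of Plk5.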
